A study of Solanum tuberosum with 6 samples.

Results

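The clones described here are the cDNA clones of a potato (Solanum tuberosum) array whose annotation names Rubisco, the enzyme that fixes carbon dioxide in the chloroplast, or a protein that acts on it. They were found by a search of the annotation for ribulose bisphosphate carboxylase, Rubisco or rbcS, and no measured value entered the choice. The search found 29 of 10499 clones on the array, of which 7525 carried any annotation. There were 20 clones named as the Rubisco small subunit, 6 named as Rubisco activase and 3 named as Rubisco methyltransferases. No clone of the large subunit, which is encoded in the plastid, was among them.

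The samples were first and second leaves of the cultivar PS3, grown in pots for 2 months under 12 h of light at 40 µmol per square metre and second. Plants received 75 mL of either 150 mM NaCl or tap water, and leaves were taken 3 days or 1 day later from different sets of plants. There were 3 two-colour arrays for each of the 2 days, 6 in all, and each set RNA of salt-watered plants against RNA of tap-water controls of the same day. The labels name 3 biological replicates per day and do not say whether plants were pooled. The dyes were swapped on replicate 2 of each day, where salt RNA carried Cy5 in place of Cy3.

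Rubisco is built from large subunits made in the chloroplast and small subunits made in the cytosol from a family of nuclear rbcS genes and then imported. In leaves, rbcS transcripts are among the most abundant messages and depend on light. Activase is a nuclear-encoded ATPase that frees Rubisco active sites from tightly bound sugar phosphates. The methyltransferases add methyl groups to Rubisco subunits or, in many plants, to other chloroplast proteins.

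All values are log2 ratios of salt over control, so that -1 is a halving in salt-watered plants. The direction is not stated. It was taken as likely because the control is labelled as the reference, although the sample titles name the control before the salt treatment. The array with swapped dyes correlated positively with the others of its day (r over clones of 0.475 and 0.639 on day 3, and of 0.577 and 0.506 on day 1), which shows a shared orientation of the arrays and not which way it runs. If the ratios ran the other way, every sign, share of the control and rank given here would turn. On day 1 the median would then be 4.15 times the control for the small subunit clones and 3.90 times for the activase clones, and STMIW88, the lowest small subunit clone, would be at 6.71 times the control and rank from the highest. The logarithm was taken as base 2, which is not stated either. Each array held 7867 to 10381 measured clones, with an array median of -0.005 to 0.049. Replicate 1 of day 3 had the lowest correlations over clones with the day 1 arrays, of -0.09 to 0.03. The other 2 arrays of day 3 had 0.08 to 0.49 with them. With the other arrays of its own day, replicate 1 had 0.475 and 0.523. A ratio holds no level, so the abundance of these transcripts and the presence of leaf cell types could not be read from it. Nor can fewer cells of a type and less RNA per cell be told apart in whole leaves.

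On day 3 after watering no small subunit clone differed between salt-watered and control leaves beyond the replicate error, whereas on day 1 most were lower in salt-watered leaves, at 24.1% of the control at the median. Of the 20 small subunit clones, 0 were lower and 0 were higher on day 3, whereas 18 were lower, 0 were higher and 2 passed in neither direction on day 1. Among all clones tested, 4.45% were lower and 1.96% higher on day 3, and 10.4% were lower and 8.11% higher on day 1. Each count is of clones with an adjusted p under 0.05 in limma, a linear model with moderated variances, after Benjamini-Hochberg adjustment over all clones. The median fitted ratio of the 20 clones was 0.08 on day 3 and -2.05 on day 1. Over all clones the day 1 median was 0.03.

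The sign of the ratio on each array was nearly the same for all small subunit clones. Their median was 1.00, -0.30 and -0.36 on replicates 1, 2 and 3 of day 3, against -2.46, -1.79 and -1.87 on those of day 1. On day 3 the replicates lay on opposite sides of the control. All 20 clones were above 0 on replicate 1, and 19 of 20 were below 0 on each of the other 2 arrays. Replicate 1 was the highest array of day 3 in 20 of 20 clones, as it was in 36.0% of all clones. On day 1, in contrast, 20 of 20 clones were below 0 on every array, as were 23.1% of all clones. Within day 1 the lowest value was that of replicate 1 in 19 of 20 clones, as it was in 30.3% of all clones. These shares of all clones are over those measured on all 3 arrays of a day, 7709 on day 3 and 9446 on day 1.

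**Figure D1:**
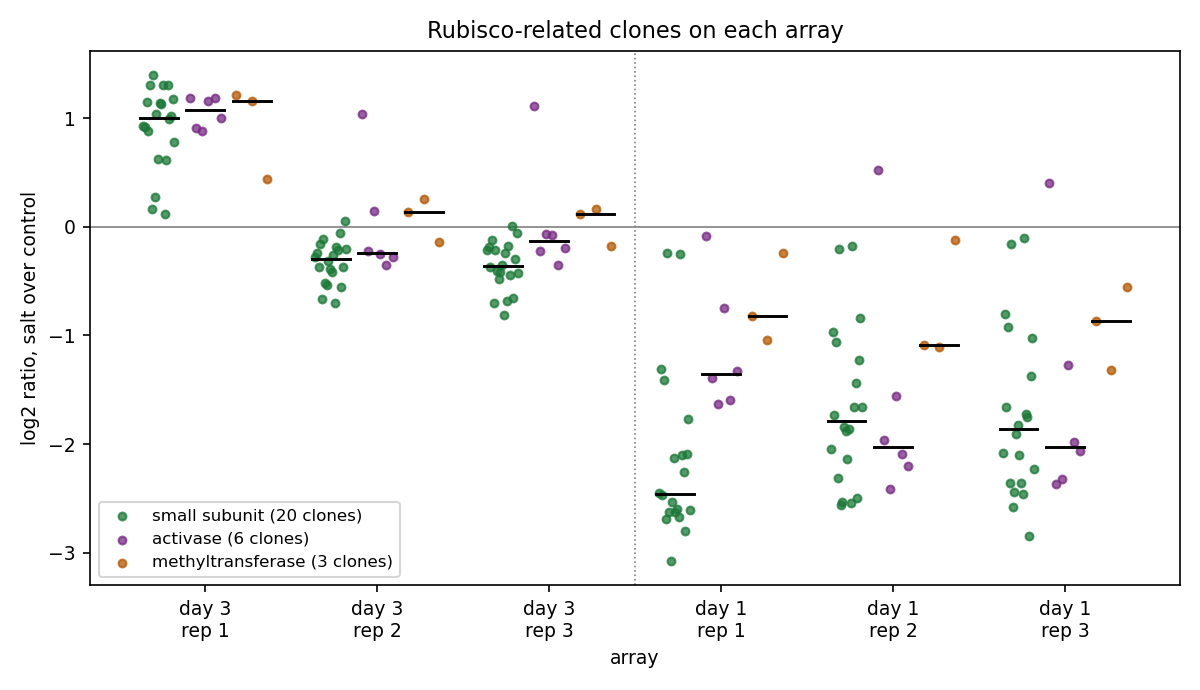
Log2 ratio of salt over control of each Rubisco-related clone on each array, with day 3 left of day 1; points are clones coloured by class and black bars are class medians. The small subunit clones lie above 0 on replicate 1 of day 3, mostly a little below 0 on the other 2 arrays of day 3, and all below 0 on day 1.

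The clone STMCB56 represents the 1 annotation that all 20 small subunit clones share. Its ratio was 0.93, -0.28 and -0.22 on day 3, against -2.45, -2.05 and -2.08 on day 1. The arrays of the 2 days did not overlap, and only replicate 1 of day 3 was above the control. The fitted ratio was 0.11 ± 0.22 (SE, 3 arrays) on day 3 with a limma adjusted p of 0.868. On day 1 it was -2.23 ± 0.22 with an adjusted p of 0.000327. Each SE here and below rests on 1 spread per clone over both days, although the SD between replicates was larger on day 3, with a median over the 20 clones of 0.725 on day 3 and 0.257 on day 1.

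The lowest small subunit clone of day 3 was STMCP20, and the lowest of day 1 was STMIW88. STMIW88 had 0.99, -0.56 and -0.65 on day 3, against -2.80, -2.50 and -2.85 on day 1. Its fitted day 1 ratio of -2.75 ± 0.28 (limma adjusted p = 0.000360) is 14.9% of the control and ranked 9 from the lowest of 9738 clones tested. STMCP20 had 0.28, -0.53 and -0.48 on day 3, against -3.08, -2.54 and -2.44 on day 1. Its day 1 ratio was -2.70 ± 0.19 (limma adjusted p = 0.000100), and its day 3 ratio of -0.26 ± 0.19 did not pass the test (adjusted p = 0.538). The highest small subunit ratio of day 3 was that of STMIW68, which had 1.30, -0.06 and 0.01 on day 3, against -2.26, -1.44 and -1.75 on day 1. Its fitted ratio of 0.41 ± 0.27 on day 3 did not pass either (limma adjusted p = 0.486), and on day 1 it was -1.83 ± 0.27 (adjusted p = 0.00166).

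Among the 18 clones that fell on day 1, the fitted ratio ran from -2.75 to -1.07 on the log2 scale. Of the 20 clones, 14 lay among the lowest 1% of all day 1 ratios and 18 among the lowest 5%, or among the highest 1% and 5% with the ratios turned. On the arrays themselves the class median had 98.2%, 18.4% and 14.5% of all clones below it on replicates 1, 2 and 3 of day 3. On day 1 it had 0.276%, 0.740% and 0.619% of all clones below it. No small subunit clone had an unadjusted limma p under 0.05 on day 3 either, and in the authors' deposited table a one-sample p under 0.05 was given for 0 of them, where 6.32% of all clones were lower and 4.89% higher by that test. The 95% intervals of the day 3 ratios reached from -0.84 at the lowest to 1.01 at the highest over the 20 clones, and were narrowest for STMFB24, from -0.37 to 0.17. Like the SEs, these intervals rest on a spread taken over both days. The median SD between replicates was 0.725 on day 3 and 0.257 on day 1, so they can be too narrow for day 3.

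Without replicate 1 of day 3, the array of that day with all 20 clones above 0, 5 small subunit clones passed the limma test as lower on day 3. Among all clones 6.85% were then lower and 3.61% higher. These were STMFB17 at -0.69, STMCG74 at -0.69, STMET36 at -0.62, STMIW88 at -0.60 and STMCK94 at -0.46, all of them among the 6 lowest clones of day 1. The class median of day 3 was then -0.33. The day 1 count of 18 was the same without that array.

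The 20 clones cannot be counted as 20 genes. The table lists 9 sequence assemblies for them, and the rbcS genes of a plant are often near-identical, so that transcript of one can hybridise to the spot of another. Which family member each clone measures is therefore uncertain. No genome position is given, since the tables used here place none of these clones. The assembly TA23498_4113 is listed for 9 clones and TA23456_4113 for 5. In the second of these, all 5 clones were lower on day 1, from -2.52 (STMCG74) to -1.07 (STMCG27).

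Clones of the larger assembly did not all behave alike on day 1. Of its 9 clones, 7 were lower on day 1, between -2.28 (STMET72) and -1.21 (STMIX84), and 2 were near the control. STMCJ24 had 0.17, -0.11 and -0.21 on day 3, against -0.24, -0.20 and -0.16 on day 1. STMFB24 had 0.12, -0.19 and -0.18 on day 3, against -0.25, -0.18 and -0.10 on day 1. Both kept the signs that most of the class showed, at a much smaller size, and their fitted day 1 ratios of -0.21 ± 0.12 and -0.19 ± 0.12 did not pass the limma test (adjusted p = 0.287 and 0.331). By the authors' deposited table, 18 of the 20 clones were lower on day 1 at a one-sample p under 0.05, where 10.7% of all clones were lower and 9.29% higher. In that table STMCJ24 did have a one-sample p under 0.05 on day 1, of 0.0124, while STMIX84 had 0.0511. Why STMCJ24 and STMFB24 differed from other spots of the same assembly was not tested.

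**Figure D2:**
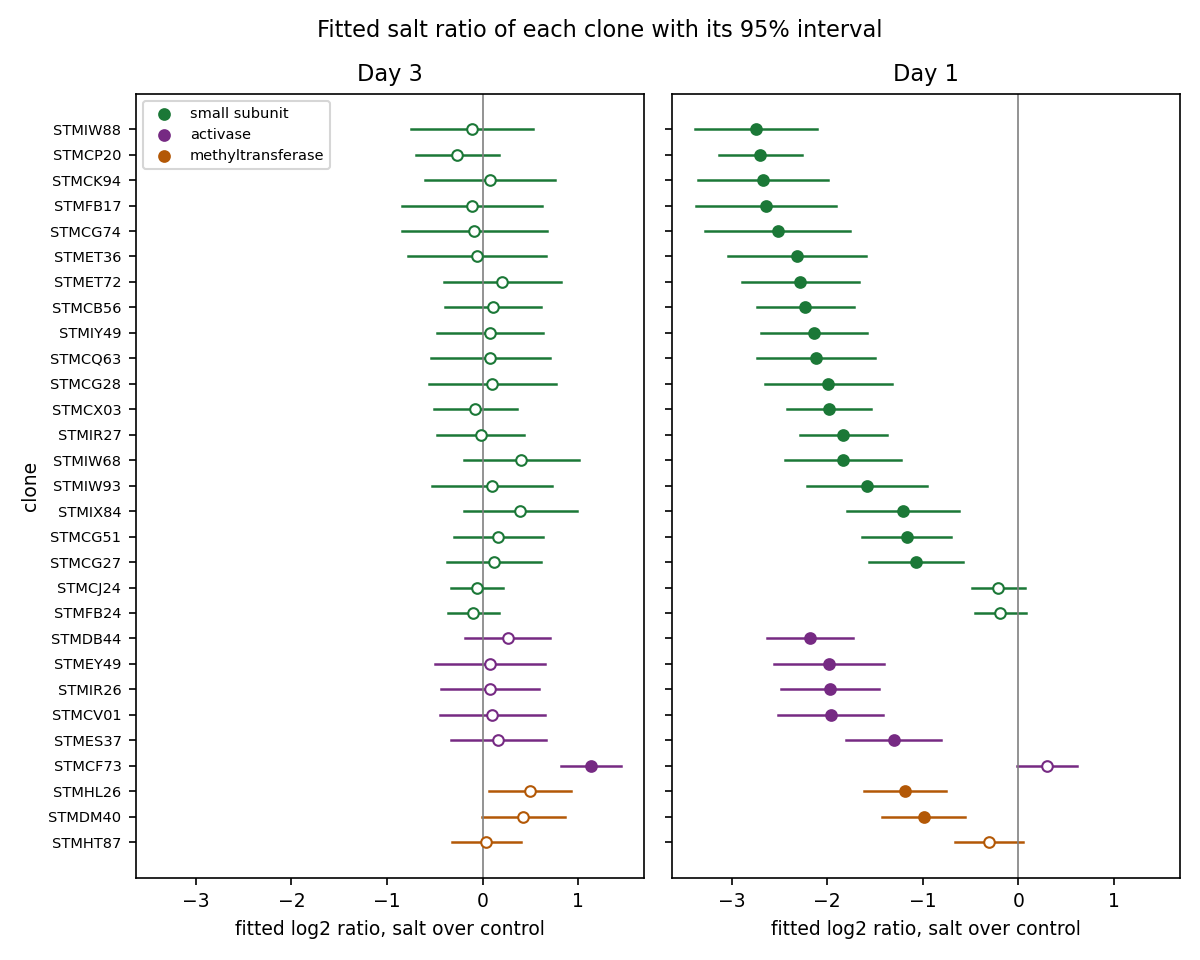
Fitted log2 ratio of salt over control of each clone with its 95% interval, day 3 in the left panel and day 1 in the right; filled points passed an adjusted p under 0.05. On day 3 only STMCF73 is filled, whereas on day 1 the small subunit clones are filled down to -2.75 except STMCJ24 and STMFB24.

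Activase, the partner that keeps Rubisco active, had class medians near those of the small subunit. Of the 6 activase clones, none was lower and 1 was higher on day 3, STMCF73, where 1.96% of all clones were higher. On day 1, 5 were lower, where 10.4% of all clones were, and none was higher. The median fitted ratio was 0.13 on day 3 and -1.96 on day 1, or 25.6% of the control on day 1. All 6 clones carry 1 annotation, from a wild tomato relative, and list the assembly TA22958_4113, so they are not independent genes. In this class the clone STMCF73 differed from the other 5 and is described apart below, a choice made after its values were seen.

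The 5 other activase clones lay between 0.07 and 0.26 on day 3, where 0 of 5 passed the limma test at the adjusted or at an unadjusted p under 0.05. On day 1 they lay between -2.18 and -1.30, with limma adjusted p from 0.000228 to 0.00337. STMDB44, the lowest, had 0.88, 0.14 and -0.07 on day 3, against -1.63, -2.41 and -2.32 on day 1. Its fitted ratio was 0.26 ± 0.20 on day 3 (limma adjusted p = 0.556) and -2.18 ± 0.20 on day 1. STMES37, the highest of the 5 on day 1, had 1.16, -0.25 and -0.07 on day 3, against -0.75, -1.56 and -1.27 on day 1. Its day 1 ratio of -1.30 ± 0.22 no longer passed without replicate 2 of day 1 (limma adjusted p = 0.0581).

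The remaining activase clones were close to one another. STMCV01 had 0.91, -0.22 and -0.23 on day 3, against -1.39, -1.97 and -2.36 on day 1. STMEY49 had 1.19, -0.35 and -0.35 on day 3, against -1.59, -2.09 and -1.98 on day 1. STMIR26 had 1.00, -0.28 and -0.19 on day 3, against -1.33, -2.21 and -2.07 on day 1. In all 3 clones every day 1 value was below every day 3 value, and the fitted day 1 ratios were -1.96, -1.98 and -1.97. How many of all clones separate by day in this way was not counted.

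The small subunit and activase clones differed in which day 1 array was lowest. Without STMCF73, the activase median was 1.00, -0.25 and -0.19 on day 3, against -1.39, -2.09 and -2.07 on day 1. Replicate 1 of day 1 was the least lowered array in all 5 of these activase clones and the most lowered in 19 of 20 small subunit clones. That array was the highest of day 1 in 27.7% of all clones measured on all 3 arrays of that day, and the lowest in 30.3%. The small subunit median minus the activase median was 0.00, -0.04 and -0.17 on day 3, against -1.07, 0.31 and 0.20 on day 1. The difference between the classes was not tested, since the clones of each share a source.

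**Figure D3:**
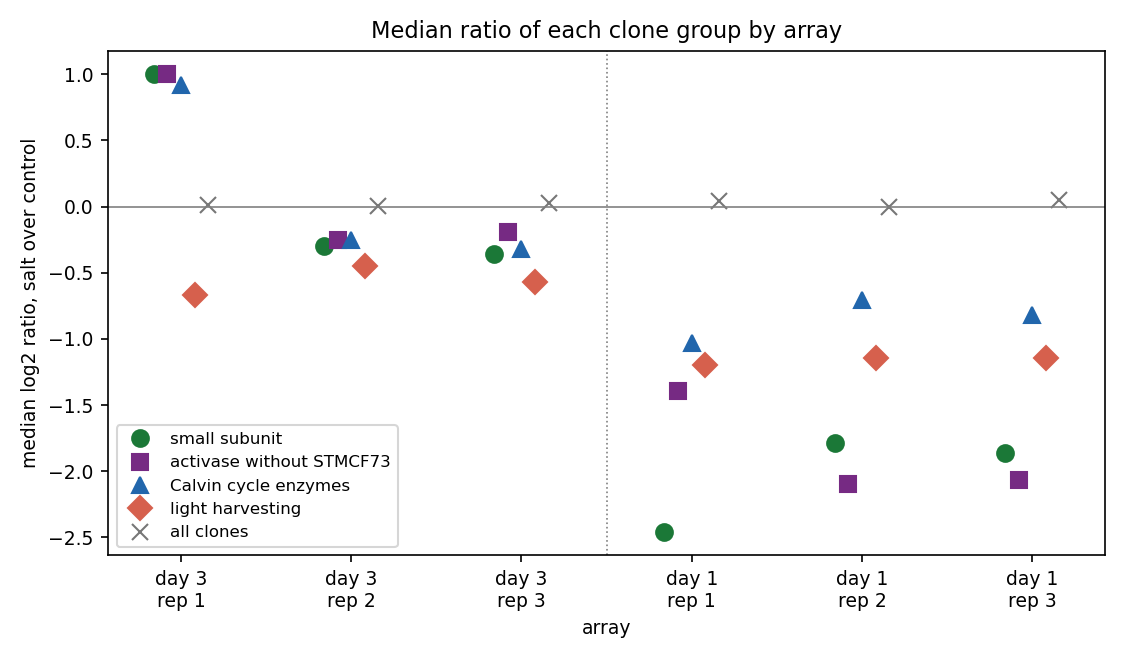
Median log2 ratio of salt over control on each array for the small subunit clones, the activase clones without STMCF73, the Calvin cycle and light harvesting clones, and all clones, with day 3 left of day 1. On replicate 1 of day 3 the small subunit, activase and Calvin cycle medians lie between 0.92 and 1.00 while the light harvesting median is -0.67.

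The clone STMCF73 is named as activase, yet its ratios were those of another profile. It had 1.19, 1.04 and 1.11 on day 3, against -0.08, 0.52 and 0.40 on day 1. All 3 arrays of day 3 were above the control and above every array of day 1. The fitted ratio of 1.13 ± 0.14 on day 3 was higher than the control (limma adjusted p = 0.00139), and that of 0.30 ± 0.14 on day 1 did not pass (adjusted p = 0.181). Besides the activase assembly, the table lists TA22939_4113 for this clone, and 2 other clones list that assembly, STMEY55 and STMDW19. Both are annotated as a pathogenesis-related protein of the PR-10 family, small proteins that accumulate in plants under infection or stress.

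Both PR-10 clones followed STMCF73 closely across the arrays. STMEY55 had 1.28, 1.37 and 1.21 on day 3, against -0.06, 0.85 and 0.50 on day 1. STMDW19 had 1.38, 1.60 and 1.25 on day 3, against -0.07, 1.08 and 0.41 on day 1. The likeness of 2 clones was measured by the root mean square of their differences over the 6 arrays. STMEY55 differed from STMCF73 by 0.204 and ranked 1 of 7631 clones, and STMDW19 differed by 0.340 and ranked 9. Clones outside that assembly were closer than STMDW19, among them STMHG92 (0.229), STMGN69 (a lipid-transfer protein, 0.252), STMHY91 (0.286) and STMEW74 (0.289). On day 1 STMEY55 and STMDW19 passed as higher (limma adjusted p = 0.0451 and 0.0259), where 8.11% of all clones did and STMCF73 did not. The 5 other activase clones differed from STMCF73 by 1.33 to 1.86 and ranked between 7045 and 7484. STMCF73 was set apart from them on these same 6 arrays, so this distance is no separate support. Which of its assemblies the STMCF73 spot measures was not tested.

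**Figure D4:**
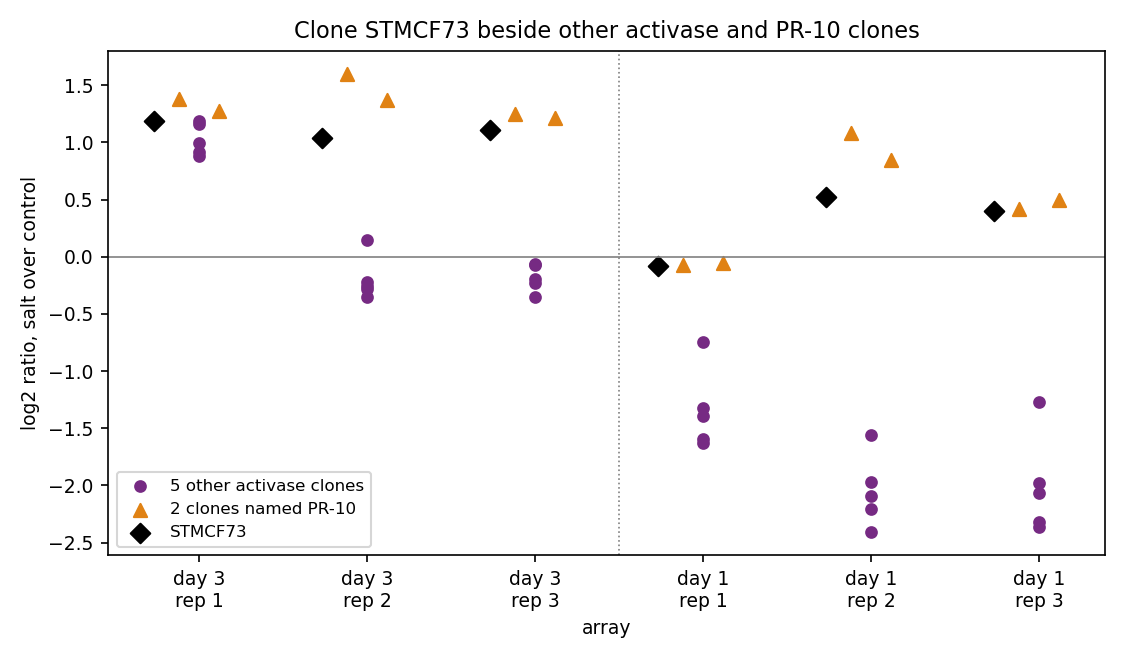
Log2 ratio of salt over control on each array of STMCF73 (diamonds), the 5 other activase clones (circles) and the 2 clones named PR-10 (triangles), with day 3 left of day 1. STMCF73 stays near the PR-10 clones on all 6 arrays, and apart from the other activase clones on 5 of them; on replicate 1 of day 3 the other activase clones also reach 0.88 to 1.19.

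The methyltransferase clones also lay below 0 on every array of day 1, at fitted ratios of -1.19 to -0.31. None of the 3 passed the limma test on day 3 in either direction. At an unadjusted limma p under 0.05, 1 was higher on day 3, where 8.79% of all clones were. On day 1, 2 of 3 were lower, where 10.4% of all clones were. STMHL26 and STMDM40 carry the name of a tobacco enzyme that methylates the large subunit and share 1 assembly. STMHL26 had 1.15, 0.25 and 0.16 on day 3, against -1.04, -1.11 and -1.32 on day 1, and its fitted day 1 ratio was -1.19 ± 0.19 (limma adjusted p = 0.00259). STMDM40 had 1.22, 0.14 and 0.12 on day 3, against -0.82, -1.09 and -0.87 on day 1. Its day 1 ratio of -0.99 ± 0.19 (limma adjusted p = 0.0068) did not pass without replicate 1 of day 1 or without replicate 2 of day 1 (adjusted p = 0.0667 and 0.0805). In both, all arrays of day 3 were above 0 and all arrays of day 1 below, a pattern that was not counted over all clones.

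STMHT87 carries the name of an Arabidopsis enzyme that methylates the small subunit. It had 0.44, -0.14 and -0.17 on day 3, against -0.24, -0.12 and -0.56 on day 1. The days overlapped in this clone, and its fitted ratios of 0.04 ± 0.16 on day 3 and -0.31 ± 0.16 on day 1 did not pass the limma test (adjusted p = 0.941 and 0.231).

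The change between the days was tested as a contrast, day 3 minus day 1, in the same fit. It was higher for 18 of 20 small subunit clones and lower for 0, where 6.46% of all clones were higher and 5.12% lower. The median difference was 2.21, from 0.09 (STMFB24) to 2.74 (STMCK94). For STMCB56 it was 2.34 ± 0.31 (limma adjusted p = 0.00267). All 6 activase clones were higher in this contrast, with a median of 2.05. The 5 activase clones other than STMCF73 had differences of 1.47 to 2.44, and STMCF73 had 0.83 ± 0.19 (limma adjusted p = 0.0241). Of the methyltransferase clones, STMHL26 at 1.68 and STMDM40 at 1.42 passed and STMHT87 at 0.35 did not.

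Fewer clones passed in this contrast without replicate 1 of day 1, among all clones as among these. Without it, 3 of 20 small subunit clones passed, STMCB56, STMCP20 and STMCX03, where 1.53% of all clones were higher and 2.01% lower. The fitted differences of the 18 clones were then 0.98 to 2.63. Of the activase clones 3 passed without it, STMDB44, STMIR26 and STMCV01, and of the methyltransferase clones none did. The difference of STMCF73 did not pass when any one of the 3 day 1 arrays was left out (limma adjusted p from 0.0511 to 0.0991). Leaving out this array also lowered the number of small subunit clones called lower on day 1 to 14, where 6.55% of all clones were lower and 4.63% higher, and left that of activase at 5. The least lowered of these 14 clones was STMIW68 at -1.60.

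Averaged over both days, 16 of 20 small subunit clones were lower and none higher, against 10.6% lower and 7.26% higher among all clones. The median of the averages was -1.02. The activase clones gave 5 lower and 1 higher, STMCF73. These averages hold a day on which no small subunit clone passed, and the counts moved with single arrays of day 3. Without replicate 2 of day 3 the numbers lower were 5 small subunit and 2 activase clones, and without replicate 1 of day 3 they were 18 and 5. The count over all clones moved too. It was 955 lower with all arrays and 371 without replicate 2 of day 3, and ran from 371 to 1350 over each array left out in turn.

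Other enzymes of carbon fixation were read from word lists on the annotation. Clones of a list can share a name and cannot be counted as separate genes. The 19 Calvin cycle clones carry 10 distinct names and the 9 photorespiration clones 6. Of 19 Calvin cycle clones, none passed the limma test in either direction on day 3, with a median of -0.01. At an unadjusted limma p under 0.05, 1 was higher on day 3, where 8.79% of all clones were. On day 1, 14 were lower, where 10.4% of all clones were, and none was higher. Their day 1 median was -0.80. Array by array their median was 0.92, -0.25 and -0.32 on day 3, against -1.03, -0.71 and -0.82 on day 1. The lowest was STMCP14, named as subunit A of the chloroplast glyceraldehyde-3-phosphate dehydrogenase, which reduces the first product of fixation. It had 0.97, -0.82 and -0.73 on day 3, against -2.15, -2.36 and -2.10 on day 1, and its fitted day 1 ratio was -2.30 ± 0.27 (limma adjusted p = 0.000637).

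Photorespiration recovers carbon after Rubisco has reacted with oxygen. Of its 9 clones, none passed in either direction on day 3. On day 1, 3 of the 9 were lower, where 10.4% of all clones were, and none was higher. At an unadjusted limma p under 0.05, 2 were lower and 1 was higher on day 3, where 10.0% of all clones were lower and 8.79% higher. Their median was -0.10 on day 1. STMIY23, named as the H-protein of glycine decarboxylase, was lower on day 1 at -1.56 ± 0.25 (limma adjusted p = 0.00248). STMDV86, named as serine hydroxymethyltransferase, was lower on day 1 at -1.07 ± 0.18 (limma adjusted p = 0.00306).

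Chaperonins fold the large subunit in the chloroplast. None of the 6 chaperonin clones tested on day 3 passed. At an unadjusted limma p under 0.05, 4 were higher, where 8.79% of all clones were, and none was lower. Of the 7 tested on day 1, 2 were lower, where 10.4% of all clones were. These were STMEL85 (chaperonin 21) at -1.22 ± 0.19 and STMCM44 (the beta subunit of chaperonin-60) at -0.70 ± 0.19, with limma adjusted p of 0.00233 and 0.0352. Both were above 0 on all 3 arrays of day 3, at fitted ratios of 0.66 and 0.70 that did not pass (limma adjusted p = 0.0835 and 0.0703).

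The light harvesting proteins, which bind chlorophyll and are nuclear-encoded like the small subunit, gave calls on both days. Their 21 clones carry 7 distinct names, so they are not 21 separate genes. These clones had a median of -0.67, -0.45 and -0.57 on day 3, against -1.20, -1.15 and -1.14 on day 1. On day 3, 9 of 21 passed the limma test as lower, where 4.45% of all clones did. On day 1, 17 of 21 did, where 10.4% of all clones did. The small subunit median minus the light harvesting median was 1.68, 0.15 and 0.21 on day 3, against -1.26, -0.64 and -0.72 on day 1. On replicate 1 of day 3 the light harvesting clones were thus low on the array on which the small subunit clones were high. The difference between these lists was not tested.

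Markers of other leaf cell types and of the tuber were read from word lists too. Of 10 epidermis and cuticle clones tested, 3 were higher on day 3, where 1.96% of all clones were, and 2 on day 1, where 8.11% were. None was lower on either day by the limma test. At an unadjusted limma p under 0.05, none was lower on day 3 and 2 were on day 1, where 16.1% of all clones were. The median of the list was 0.16, 0.12 and 0.41 on day 3, against 0.29, -0.08 and 0.58 on day 1, and its part in the small subunit result was not tested. The 1 phloem clone passed on neither day. Of 7 tuber storage clones tested on day 1, 1 was lower, where 10.4% of all clones were, and 0 of 5 tested on day 3 passed. The 1 lower clone was a patatin clone (STMEP28, -1.45 ± 0.19, limma adjusted p = 0.00106).

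Over 7603 clones measured on every array, those most like the small subunit median were found by the root mean square difference over the 6 arrays. Clones without an annotation were passed over and each name was listed once, here and for activase, so unnamed clones can lie closer than those listed. STMIS49, named Patellin-6, differed by 0.0945, with 0.98, -0.34 and -0.44 on day 3, against -2.60, -1.84 and -2.02 on day 1. After it came STMCG40 (a trigger factor-like protein, 0.156), STMIQ66 (a GTP-binding-like protein, 0.159), STMIU20 (a putative CAAX prenyl protease, 0.205) and STMIW46 (named as a WRKY factor, 0.210). The clones most like the median of the 6 activase clones were STMEQ47, a hypothetical protein that differed by 0.252, STMCU02, similar to a plastid-type ribosomal protein, at 0.275, and STMEW09, another subunit A clone of glyceraldehyde-3-phosphate dehydrogenase, at 0.298. The measure uses the same 6 arrays for every clone and is a description only.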

How the data were processed

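The authors deposited 1 log2 ratio per clone and array with an annotated clone table, and the ratios entered as deposited. How the arrays were scanned and normalized is not given in the sources used here, nor is the base of the logarithm. The deposited table also gave the authors' one-sample p-value per clone and day. The small subunit, activase and methyltransferase classes, the word lists (5 accidental matches dropped) and the clones named were chosen with earlier results of these data known. Per the labels' protocols, RNA came from 100 mg of leaf, RNA with an integrity number under 7 was excluded, and 15 µg was labelled per sample.

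All 6 arrays entered 1 least-squares fit per pattern of missing values, with 1 coefficient per day and a dye term per clone (its median was 0.08 over the small subunit clones). The dye term was used because salt was in Cy3 on 2 arrays of a day and in Cy5 on 1. Variances were moderated with limma 3.58.1 in R 4.3.3 (prior SD 0.223) and p-values adjusted by Benjamini-Hochberg over all clones tested, with a call at 0.05. Clones needed at least 2 arrays of a day. All 29 Rubisco-related clones were measured on all 6 arrays. The planned background correction did not apply, since no intensities were used. The fit was tested on simulated data. The named clones were, for the small subunit, the clone standing for each annotation and those with the lowest and highest ratio of each day, and every clone of the other 2 classes. For the lists, leading clones of the smallest p per day were taken. The number of arrays limits the precision. Each limma p-value sets a ratio against an SE from the spread between the biological replicates the labels name. That spread was taken over both days and moderated with that of all clones. Alternatives were the dye term, a replicate block, scaling and centring of arrays, clones on all arrays only, a threshold of 0.1, each array left out, the value table of the series, the authors' p-values and, chosen after seeing the data, activase without STMCF73. Tables and plots were made with Python 3.11.15, pandas 2.3.3 and matplotlib 3.10.9.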

Additional observations from a re-analysis of the deposited data

Results flagged for a closer look

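The salt ratio differed between the days by a test of the difference itself (day 3 minus day 1, limma adjusted p under 0.05) in 18 of 20 small subunit clones and in 6 of 6 activase clones. Among all clones 6.46% were higher and 5.12% lower in this difference. Among the small subunit clones named above, the difference was 2.34 for STMCB56, 2.64 for STMIW88, 2.44 for STMCP20 and 2.24 for STMIW68. Among the activase clones it was 2.44 for STMDB44, 2.06 for STMCV01, 2.05 for STMEY49, 2.04 for STMIR26, 1.47 for STMES37 and 0.83 for STMCF73. For the large-subunit methyltransferase clones it was 1.68 for STMHL26 and 1.42 for STMDM40. Without replicate 1 of day 1, 3 small subunit, 3 activase and none of the methyltransferase clones passed. Calls fell among all clones as well, to 1.53% higher and 2.01% lower. STMES37 also did not pass without replicate 2 or replicate 3 of day 1 (limma adjusted p = 0.0575 and 0.0599) or without the dye term (0.0555). Groups of 3 arrays are too small for the check of single outlying arrays.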

How the results depend on the processing

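The small subunit and activase medians of day 1 were below 0 under every setting run, and the number of arrays limits what can be called. Across all settings, 405 summary values stayed close to those reported and 47 moved. Of the values for named clones, 518 kept sign and call, 15 lost the call, 1 gained it and 12 turned sign. Leaving out each array in turn gave 0 to 5 small subunit clones lower on day 3, 14 to 18 lower on day 1 with a median of -2.49 to -1.86, 3 to 18 higher in the difference and 5 to 18 lower on average. For activase it gave 3 to 6 higher in the difference and 2 to 5 lower on average. Over all clones it gave 28 to 278 higher and 144 to 528 lower on day 3, 177 to 1147 higher and 377 to 1387 lower on day 1, 134 to 710 higher and 177 to 465 lower in the difference, and 169 to 1008 higher and 371 to 1350 lower on average.

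Day 3 ratios near 0 turned sign between arrays left out: STMCB56 -0.25 to 0.46, STMCP20 -0.51 to 0.0092, STMCV01 -0.22 to 0.35, STMES37 -0.16 to 0.45, STMEY49 -0.35 to 0.42, STMHT87 -0.16 to 0.27, STMIR26 -0.24 to 0.36, STMIW68 -0.0245 to 0.94 and STMIW88 -0.60 to 0.33. The difference of STMFB24 ran from -0.0087 to 0.16. The number of all clones higher on day 3 was 338 at an adjusted p under 0.1, 340 with arrays scaled to equal median absolute deviation, 281 with the replicate block, 114 without the dye term and 444 by the authors' p under 0.05. Without the dye term, 372 clones were higher and 279 lower in the difference. Whether replicate numbers pair the arrays of the days could not be settled. The correlation of same-numbered deviations was 0.05, 0.60 and 0.45, and 2 of 3 numbers matched their own best. Replicate 2 also carried the swapped dyes on both days, so pairing and dye cannot be told apart there. The replicate block changed no other count by over 1.5 times, with 18 small subunit and 5 activase clones lower on day 1. After Benjamini-Hochberg adjustment of the authors' one-sample p-values, 0 of all clones were lower on day 3, 1 of all clones and 0 activase clones were higher on day 3, 0 small subunit, 0 activase and 0 of all clones were lower on day 1, and 0 of all clones were higher on day 1. The cause of these shifts was not tested. Before adjustment, 18 small subunit and 5 activase clones were lower on day 1 by that test. Without STMCF73, 0 activase clones were higher on day 3 or on average.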
